A study of Homo sapiens with 74 samples.

Results

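The 10 mRNAs described here are counted among those with a 5′ terminal oligopyrimidine (TOP) tract, do not encode ribosomal proteins, and were followed through the RNA libraries of a DamID study in HEK293T cells. They were EEF1A1, EEF1B2, EEF1D, EEF1G, EEF2, PABPC1, TPT1, NAP1L1, NPM1 and NACA. Members were chosen by gene symbol, and all 10 were found among the 35248 symbols of the RNA count table and passed the low-count filter that left 16843 genes to test.

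The 5′ TOP tract is a C at the first transcribed base followed by an uninterrupted run of pyrimidines. It is shared by the mRNAs of ribosomal proteins, elongation factors and a small number of other proteins of translation. Translation and stability of these mRNAs are coupled to growth signals through the kinase complex mTORC1 and the cap-binding protein LARP1, so that cells can adjust the synthesis of the translation machinery as a group. During elongation, eEF1A brings the aminoacyl-tRNA to the ribosome, the eEF1B complex recharges eEF1A with GTP, and eEF2 drives translocation.

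The first bases of the mRNAs, by which such mRNAs are classed, are shown with the 10 bases before and the 20 bases from the RefSeq start of each gene. RefSeq (GRCh38.p14) gave a window for 8 of the 10 members, without EEF1D and PABPC1. Sequences are written 5′ to 3′ on the strand of the gene. Capitals mark a run of at least 5 pyrimidines counted onward from a C within 10 bases of the start. The C nearest the start was taken, whatever base came before it.
EEF1A1 (chr6:73521013-73521042, minus strand): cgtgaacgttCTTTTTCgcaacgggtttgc
EEF1B2 (chr2:206159885-206159914, plus strand): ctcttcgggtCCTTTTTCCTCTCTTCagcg
EEF1G (chr11:62573872-62573901, minus strand): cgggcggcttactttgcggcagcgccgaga
EEF2 (chr19:3985444-3985473, minus strand): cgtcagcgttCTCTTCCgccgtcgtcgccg
TPT1 (chr13:45341164-45341193, minus strand): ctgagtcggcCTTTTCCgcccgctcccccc
NAP1L1 (chr12:76084666-76084695, minus strand): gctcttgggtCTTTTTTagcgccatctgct
NPM1 (chr5:171387839-171387868, plus strand): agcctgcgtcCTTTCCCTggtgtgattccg
NACA (chr12:56725280-56725309, minus strand): ctcgctcggtCTTTCTgccgccatcttggt

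In 7 of these 8 genes the RefSeq start itself was a C from which such a run was counted. The base before the start was also a C or T in each of the 7, so the stretch in the genome was longer than the run. The longest, of 16 pyrimidines, was in EEF1B2, and the shortest, of 6, in NACA. EEF1G had no run of 5 within 10 bases of its start; with a minimum of 4, all 8 windows held one within that distance. RefSeq lists a further start for EEF1B2, which has no such run, and for NPM1. There a run of 5, counted from a C 6 bases before the start, is the end of a longer stretch of pyrimidines. Read on the gene's own strand only, a run of at least 5 counted from a C at the exact start was found in 6.24% of the 15811 protein-coding genes with a window. It was found in 47 of 63 ribosomal protein genes (74.6%). Since the tract is what the members were chosen for, these shares describe the group and test nothing.

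HEK293T cells derive from human embryonic kidney and express the large T antigen of SV40. The RNA libraries were 8 polyA libraries in 4 groups of 2, labelled by what the cells were transfected with: DamV133A-LMNB1 (the bacterial adenine methylase Dam with the V133A change, fused to lamin B1), DamV133A alone, m6A-Tracer (a reader of the GATC methylation that Dam leaves), or nothing ("untreated"). Transfection was transient, with FuGene HD, and the label shared by every sample gives 1 mM Shield-1, a ligand that stabilises destabilised-domain fusions, for 20 hours; the sources used here do not say whether untreated cells received the reagent or the ligand. Nor do they give the share of cells that took up each plasmid. In bulk libraries, fewer cells of a type and less RNA per cell cannot be told apart. Nothing in the labels says that the 2 libraries of a group came from separate cultures, so p-values measure the spread between these libraries only.

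Library totals ran from 39690886 to 51455298 estimated counts. As a check of the labels, LMNB1 stood at 2547 and 2060.5 CPM (each library's counts divided by its TMM-normalized total, which puts the 8 libraries on 1 scale) in the DamV133A-LMNB1 libraries, at 767 and 768 in untreated cells, and at 250 to 257 in the other 4 libraries. The labels account for the first level but not for untreated cells being above the other 4 libraries, and the cause was not tested. CPM of cell type markers and pseudogenes were taken over library totals without TMM. All 8 markers of HEK293 lines were above 1 CPM in every library (their sum ran from 1106 to 1446 CPM). Of these, 3 (VIM, NEFL and NEFM) were called lower in each transfected group than in untreated cells. Of all genes, 14% were called lower with DamV133A, 5.35% with m6A-Tracer and 8.54% with DamV133A-LMNB1. With DamV133A-LMNB1 against DamV133A, 4 of the 8 (KRT8, KRT18, NEFL and VIM) were called higher and none lower, calls that were all lost without either DamV133A library (KRT18 and VIM also without any 1 untreated or m6A-Tracer library). With both DamV133A libraries, 13.9% of all genes were called higher in that comparison and 9.11% lower. The part of the marker changes in the results was not tested. Of markers of other cell types, the summed level ran from 2.07 to 3.30 CPM for blood, from 0.0952 to 0.800 for liver, from 0.524 to 1.36 for endothelium and from 28.2 to 32.7 for fibroblasts, with PTPRC, CD3E, ALB, APOA2, DCN, LUM, PECAM1, CDH5 and KDR under 1 CPM in every library and no marker at 0 in every library. The 2 DamV133A-LMNB1 libraries stood apart from each other: over all genes the median absolute gap between them was 0.21 on the log2 scale, against 0.07 within each of the other groups. Library 2 was higher than library 1 in 9 of the 10 members, with a median gap of 0.20, while 49.8% of all genes were higher in library 2. For the members, each RNA comparison with this group is therefore given with both libraries and with what changed when 1 library was left out. The number of all genes called also moved in such fits, so counts of called members there are not a trait of the members alone.

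Together the 10 mRNAs made up 2.55% of all counts in both untreated libraries, 2.20% and 2.37% in the DamV133A-LMNB1 libraries, 2.09% and 2.08% with m6A-Tracer, and 2.00% and 1.99% with DamV133A. The share was highest in untreated cells and lowest with DamV133A, and the 4 groups did not overlap. EEF1A1 alone contributed 0.851% of all counts on average.

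EEF1A1 encodes the main isoform of eEF1A, the GTPase that delivers aminoacyl-tRNA. It stood at 10571 and 10729 CPM in untreated cells, 8285 and 9536 with DamV133A-LMNB1, 7629.8 and 7632 with m6A-Tracer, and 7055 and 6973 with DamV133A. The 4 groups did not overlap and followed in that order. EEF1A1 fell by 0.60 ± 0.06 (SE) on the log2 scale with DamV133A, a fall of 34.1% (edgeR quasi-likelihood test, adjusted p = 0.00037). It fell by 0.48 ± 0.06 with m6A-Tracer (edgeR adjusted p = 0.0020) and by 0.26 ± 0.06 with DamV133A-LMNB1 (edgeR adjusted p = 0.019). Processed pseudogenes named after the members filled 144 rows of the table. EEF1A1P5, at 3.30 to 7.55 CPM, and EEF1A1P6, at 1.36 to 2.86 CPM, were the 2 with a group mean of 1 CPM or more. All such rows together came to at most 0.106% of their parent's counts (in EEF1D), so adding them could hardly move a call. Every RNA count of called members stayed as it was.

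EEF1B2, EEF1D and EEF1G encode the β, δ and γ subunits of the eEF1B complex, of which the first 2 exchange GDP for GTP on eEF1A and the γ subunit is structural. EEF1B2 stood at 433 and 432 CPM in untreated cells, 435 and 534 with DamV133A-LMNB1, 359.9 and 349 with m6A-Tracer, and 329 and 324 with DamV133A. The DamV133A-LMNB1 libraries were the highest, the first of them barely above untreated cells, and the DamV133A libraries were the lowest. EEF1D stood at 304 and 297 CPM in untreated cells, 275 and 349 with DamV133A-LMNB1, 258 and 253 with m6A-Tracer, and 239.8 and 226 with DamV133A. Here the DamV133A-LMNB1 libraries lay on both sides of the untreated ones, while the other groups were lower and apart. EEF1G stood at 2818 and 2794 CPM in untreated cells, 2382 and 2814.5 with DamV133A-LMNB1, 2169.7 and 2118 with m6A-Tracer, and 1959 and 1912 with DamV133A. Its second DamV133A-LMNB1 library lay among the untreated ones and its first below them.

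All 3 subunits fell with DamV133A: by 0.41 ± 0.08 for EEF1B2, by 0.37 ± 0.10 for EEF1D and by 0.54 ± 0.07 for EEF1G (edgeR adjusted p = 0.0092, 0.023 and 0.0013). With m6A-Tracer, EEF1G fell by 0.39 ± 0.07 (edgeR adjusted p = 0.0096), while EEF1B2 at -0.29 ± 0.08 and EEF1D at -0.23 ± 0.10 did not pass (edgeR adjusted p = 0.058 and 0.14). With DamV133A-LMNB1 none of the 3 passed, at 0.16 ± 0.08, 0.05 ± 0.10 and -0.11 ± 0.07. EEF1B2 and EEF1D are each split over 2 Ensembl identifiers in the table, which were summed here. In a fit of the rows as deposited, a choice made after seeing the data, only the first row of a symbol stood for the gene. The counts of called members were then the same. That row held 50% of the counts of EEF1B2 and 54.5% of those of EEF1D, and the other rows were not examined.

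EEF2, the translocase, stood at 5420.2 and 5275 CPM in untreated cells, 4824 and 4852 with DamV133A-LMNB1, 4642 and 4569 with m6A-Tracer, and 4412 and 4345 with DamV133A. The groups did not overlap, and the 2 DamV133A-LMNB1 libraries were 0.01 apart on the log2 scale. EEF2 fell by 0.29 ± 0.04 with DamV133A, by 0.22 ± 0.04 with m6A-Tracer and by 0.14 ± 0.04 with DamV133A-LMNB1 (edgeR adjusted p = 0.0011, 0.0074 and 0.026).

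PABPC1, the cytoplasmic protein that coats poly(A) tails, stood at 1660 and 1655 CPM in untreated cells, 1387 and 1364 with DamV133A-LMNB1, 1362 and 1324 with m6A-Tracer, and 1354 and 1382 with DamV133A. The 6 transfected libraries lay close together, under both untreated ones. PABPC1 fell by 0.27 ± 0.04 with DamV133A-LMNB1, by 0.30 ± 0.04 with m6A-Tracer and by 0.28 ± 0.04 with DamV133A (edgeR adjusted p = 0.0038, 0.0031 and 0.0021). It was the one member whose DamV133A-LMNB1 libraries overlapped the DamV133A ones and whose first DamV133A-LMNB1 library was above the second.

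TPT1 encodes translationally controlled tumour protein, a small protein tied to growth. It stood at 957 and 954 CPM in untreated cells, 874 and 1005 with DamV133A-LMNB1, 789 and 805 with m6A-Tracer, and 743 and 749.8 with DamV133A. The DamV133A-LMNB1 libraries lay on both sides of the untreated ones, and the other groups were lower and apart. TPT1 fell by 0.36 ± 0.06 with DamV133A and by 0.26 ± 0.06 with m6A-Tracer (edgeR adjusted p = 0.0049 and 0.031), and its value with DamV133A-LMNB1 was -0.02 ± 0.06. No source used here gives the strand used in counting, so reads of the antisense gene of TPT1 cannot be told apart from its own.

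NAP1L1, a chaperone of histones H2A and H2B, stood at 776 and 777 CPM in untreated cells, 622 and 685 with DamV133A-LMNB1, 595 and 604 with m6A-Tracer, and 566 and 580.5 with DamV133A. No group overlapped another. NAP1L1 fell by 0.44 ± 0.05 with DamV133A, by 0.37 ± 0.05 with m6A-Tracer and by 0.25 ± 0.05 with DamV133A-LMNB1 (edgeR adjusted p = 0.0011, 0.0042 and 0.016).

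NPM1, nucleophosmin, a nucleolar chaperone that takes part in ribosome assembly, stood at 2627 and 2657 CPM in untreated cells, 2452 and 2824 with DamV133A-LMNB1, 2227 and 2245 with m6A-Tracer, and 2154 and 2161 with DamV133A. NACA, a subunit of the complex that meets nascent chains at the ribosome exit, stood at 671 and 666 CPM in untreated cells, 601 and 673 with DamV133A-LMNB1, 532 and 527 with m6A-Tracer, and 498 and 502 with DamV133A. In both, the DamV133A-LMNB1 libraries lay on both sides of the untreated ones. NPM1 fell by 0.29 ± 0.06 with DamV133A and by 0.24 ± 0.06 with m6A-Tracer (edgeR adjusted p = 0.0094 and 0.036). NACA fell by 0.42 ± 0.06 with DamV133A and by 0.34 ± 0.06 with m6A-Tracer (edgeR adjusted p = 0.0017 and 0.0081). With DamV133A-LMNB1 the values were -0.0023 ± 0.06 for NPM1 and -0.07 ± 0.06 for NACA, and neither passed.

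**Figure D1:**
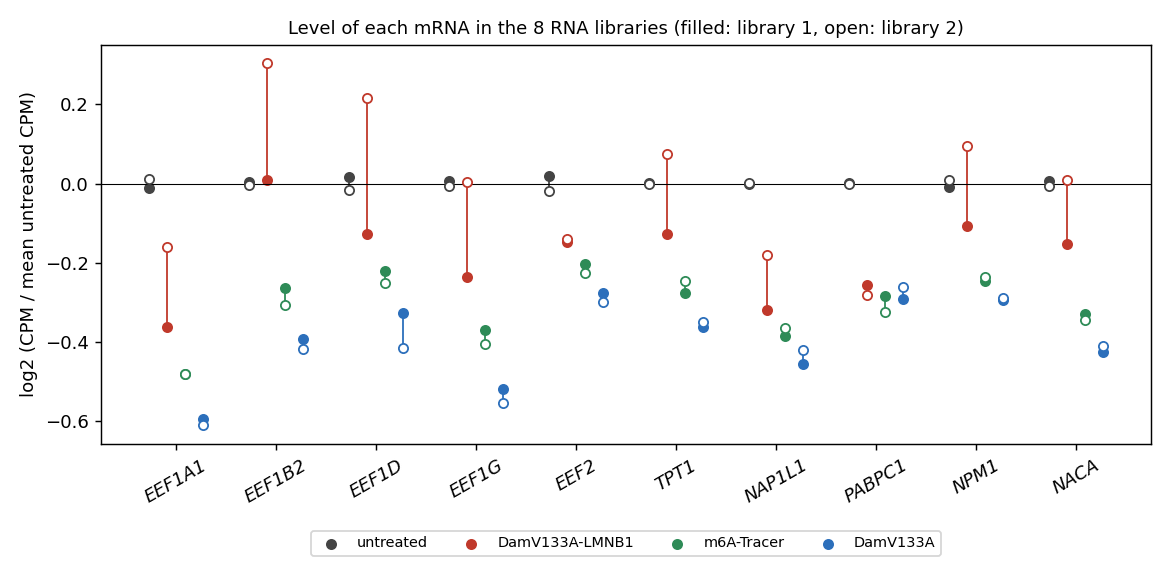
Level of each mRNA in the 8 RNA libraries, as log2 of CPM over the mean of the 2 untreated libraries; filled points are library 1, open points library 2, and a line joins the 2 libraries of a group. The DamV133A and m6A-Tracer libraries lie below the untreated ones in all 10 mRNAs, while the 2 DamV133A-LMNB1 libraries are a median of 0.20 apart.

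The order of the group means was untreated, DamV133A-LMNB1, m6A-Tracer, DamV133A in 7 members. In EEF1B2 and EEF1D the DamV133A-LMNB1 mean was the highest, and in PABPC1 the last 2 groups changed places. Neighbouring groups overlapped for untreated cells and DamV133A-LMNB1 in EEF1D, EEF1G, TPT1, NPM1 and NACA, and for DamV133A and each of its neighbours in PABPC1. Both untreated libraries were above the 4 m6A-Tracer and DamV133A libraries in 10 of 10 members, a pattern held by 28.6% of all genes tested. They were above all 6 transfected libraries in 4 members, against 15% of all genes. Both DamV133A-LMNB1 libraries were above both m6A-Tracer libraries in 10 members (29.6% of all genes) and above both DamV133A libraries in 9 (32.2%), and both m6A-Tracer libraries were above both DamV133A libraries in 9 (29.1%).

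Comparing DamV133A with untreated cells asks what transfection and expression of the methylase went with. All 10 members were called lower, at -0.60 to -0.28 with a median of -0.39 on the log2 scale, while the median over all genes was 0.01. Of all genes tested, 14% were called lower and 14% higher. With library totals in place of TMM, the median over all genes moved to 0.10 and the members, at -0.51 to -0.18, were still all called lower. Higher genes made up 50.1% of all calls, and 70.8% with library totals. Without DamV133A library 1 the count of members fell to 6, with EEF1B2, EEF1D, TPT1 and NPM1 lost, and EEF1B2, EEF1D and NPM1 were also lost without DamV133A library 2 or either untreated library; there, as in the other fits without a library, the single library left is assumed to vary like the other groups.

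Against the same untreated libraries, m6A-Tracer gave 8 members called lower and none higher, with a median of -0.29 over the 10; of all genes, 5.35% were called lower and 8.44% higher. The values stayed at -0.20 to -0.49 in every fit without 1 library. Most of the 8 calls were lost without any 1 library of the 2 groups, where fewer of all genes were called too. More members were called without either DamV133A-LMNB1 library, as were more of all genes. The share of higher genes among all calls was 61.2%, and 79.7% with library totals.

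DamV133A-LMNB1, again against those untreated libraries, gave 4 members called lower (EEF1A1, EEF2, NAP1L1 and PABPC1), none higher, and a median of -0.09; of all genes, 8.54% were called lower and 12.1% higher. Without DamV133A-LMNB1 library 1, EEF1B2 stood at 0.32, EEF1D at 0.23, NPM1 at 0.11 and TPT1 at 0.09. Their lowest values over the fits without 1 library were 0.0088, -0.13, -0.11 and -0.13, while the 4 members called lower stayed negative. More of all genes were called without either DamV133A-LMNB1 library than with both. EEF2 was lost without any 1 of the m6A-Tracer or DamV133A libraries. No member was called without untreated library 1 or 2, or when the fit held only the libraries of these 2 groups. The 3 comparisons share their untreated libraries and are therefore not independent of each other.

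The fusion was also set against the methylase without lamin B1. Of the 10 members, 9 were called higher with DamV133A-LMNB1 than with DamV133A, and the median difference was 0.34. EEF1B2 differed most, by 0.57 ± 0.08 (edgeR adjusted p = 0.014), followed by EEF1D and EEF1G at 0.42 each, with SE of 0.10 and 0.07 (edgeR adjusted p = 0.022 and 0.014). NACA at 0.35, EEF1A1 at 0.35, TPT1 at 0.33, NPM1 at 0.29, NAP1L1 at 0.19 and EEF2 at 0.14 were also called higher, while PABPC1 was at 0.01 ± 0.04 (edgeR adjusted p = 0.90). Of all genes, 13.9% were called higher and 9.11% lower; higher genes made up 60.5% of the calls, and 36.4% with library totals. The 9 calls were kept without DamV133A-LMNB1 library 1, at 0.17 to 0.73, and without library 2, at 0.12 to 0.42. None was made without DamV133A library 1 or 2, where 1 gene of the whole table was called, or in a fit of these 2 groups alone. EEF1D, EEF2 and NAP1L1 were lost without any 1 of the untreated or m6A-Tracer libraries.

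Against m6A-Tracer, DamV133A-LMNB1 stood at 0.03 to 0.45 in the 10 members, with a median of 0.24. No member was called by edgeR, the lowest adjusted p being 0.055 for EEF1B2 and NACA, although 8 had an unadjusted p under 0.05; 0.718% of all genes were called. DESeq2 called 7 members higher, as did edgeR with no low-count filter. These settings called 8.67% and 14.1% of all genes. All 10 members stayed positive when 1 library was left out, at 0.017 to 0.056 in PABPC1 and 0.30 to 0.62 in EEF1B2.

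Between DamV133A and m6A-Tracer the 10 values ran from -0.15 for EEF1G to 0.03 for PABPC1, with a median of -0.09. No member was called by edgeR, none had an unadjusted p under 0.05, DESeq2 called none, and 0.125% of all genes were called. When the fit left out the other 2 groups, 8 members were called lower with DamV133A, and 15.4% of all genes were called. Leaving out 1 library gave -0.17 to -0.13 in EEF1G and 0.0059 to 0.046 in PABPC1.

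**Figure D2:**
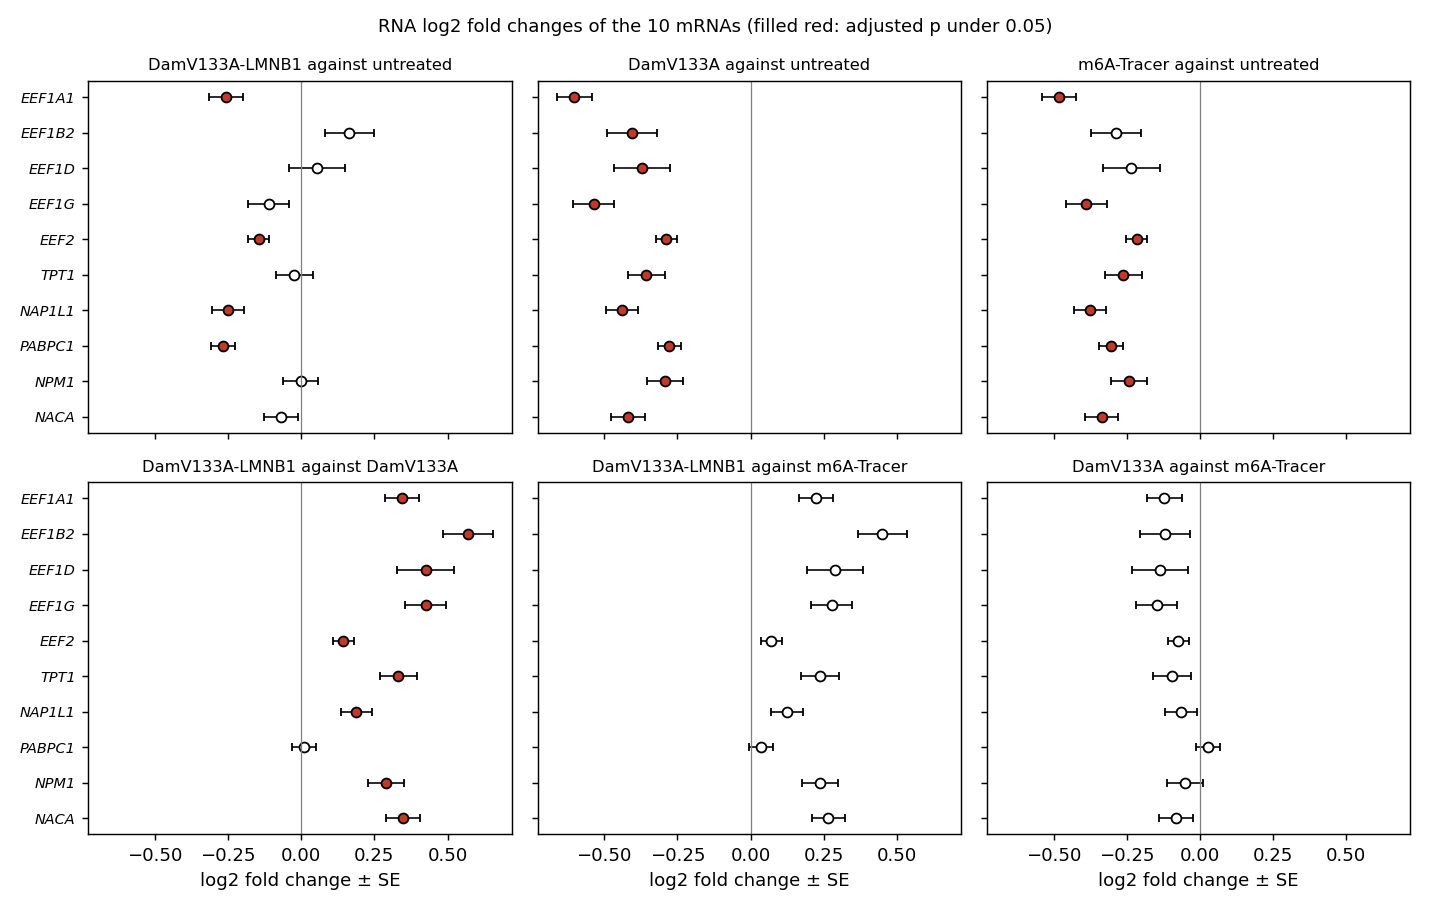
Log2 fold change with its standard error for each mRNA in the 6 comparisons of RNA groups, from 1 edgeR fit over 8 libraries; filled red points passed an adjusted p of 0.05. All 10 points are red and below 0 for DamV133A against untreated, and 9 are red and above 0 for DamV133A-LMNB1 against DamV133A.

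Other mRNAs of the translation machinery were described with the same fit. Against untreated cells, 14% of all genes were called lower with DamV133A, 5.35% with m6A-Tracer and 8.54% with DamV133A-LMNB1. With DamV133A-LMNB1 against DamV133A, 13.9% of all genes were called higher. Of 79 ribosomal protein genes, the largest class of TOP mRNAs, 78 were called lower with DamV133A than in untreated cells (median -0.55), 56 with m6A-Tracer (median -0.36) and none with DamV133A-LMNB1 (median -0.02). RPS29, a small-subunit protein, had the largest fall with DamV133A, by 0.88 ± 0.11 (edgeR adjusted p = 0.0011). All 79 were called higher with DamV133A-LMNB1 than with DamV133A (median 0.56), and 1, RPS3A, was called higher than with m6A-Tracer, a call kept in 2 of the 8 fits without 1 library; 79 were called higher than with m6A-Tracer without DamV133A-LMNB1 library 1, and 75 without library 2. The list followed the DamV133A-LMNB1 library used: against untreated cells, 64 were called higher and none lower without library 1, and 73 lower and 1 higher without library 2. With m6A-Tracer, 0 or 1 were called lower without any 1 of the m6A-Tracer or untreated libraries and 21 without either DamV133A library, and against DamV133A all 79 were called higher without either DamV133A-LMNB1 library and none without either DamV133A library. These counts without a library, here and for the next lists, were added after seeing the data. The number of all genes called moved in the same fits, so such counts are not a trait of a list alone. The ribosomal protein mRNAs took 7.93% and 7.77% of counts in untreated cells, 7.07% and 8.56% with DamV133A-LMNB1, 6.40% and 6.34% with m6A-Tracer and 5.76% and 5.66% with DamV133A. Their DamV133A-LMNB1 libraries again lay on both sides of the untreated ones.

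A list of 18 further TOP mRNAs, which includes VIM, gave 13 lower and none higher with DamV133A (median -0.38), 12 and none with m6A-Tracer (-0.27), and 6 and none with DamV133A-LMNB1 (-0.13), all against untreated cells. HNRNPA1, an RNA-binding protein of splicing, fell by 0.55 ± 0.05 with DamV133A, and EIF4B, a cofactor of the initiation helicase, by 0.51 ± 0.04 (edgeR adjusted p = 0.00019 for each). EIF4B also fell by 0.43 ± 0.04 with m6A-Tracer and by 0.33 ± 0.04 with DamV133A-LMNB1 (edgeR adjusted p = 0.00082 and 0.0023). With DamV133A-LMNB1 against DamV133A, 11 were higher and 1 lower; BTF3, which pairs with NACA in the nascent chain complex, was higher by 0.49 ± 0.08 (edgeR adjusted p = 0.014). Against untreated cells the DamV133A-LMNB1 count was 9 lower and 6 higher without its library 1, and 14 lower and 1 higher without library 2; without either untreated library it was 1 lower. The m6A-Tracer count was 3 lower without any 1 of the m6A-Tracer or untreated libraries and 8 without either DamV133A library. Against DamV133A, 13 were higher and 2 lower without DamV133A-LMNB1 library 1, and 12 and 1 without library 2. No gene of the list was called in that comparison without either DamV133A library, and 4 were higher without any 1 of the untreated or m6A-Tracer libraries.

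The list of 14 other elongation and termination factors is not counted among TOP mRNAs here. With DamV133A-LMNB1 against DamV133A, 5 were higher and none lower (median 0.02), while 13.9% and 9.11% of all genes were. The largest differences, TSFM at 0.45 and TUFM at 0.44, were calls lost without either DamV133A library. Against untreated cells, the list gave 4 higher and 2 lower with DamV133A (median 0.06), none with m6A-Tracer (0.03) and 3 higher with DamV133A-LMNB1 (0.12). Of all genes, 14% were called in each direction with DamV133A and 12.1% higher with DamV133A-LMNB1. EEF1A2, the second isoform of eEF1A, was at 140 CPM on average in untreated cells and rose by 0.44 ± 0.09 with DamV133A-LMNB1 (edgeR adjusted p = 0.010), a call lost without either untreated library; EEF1A1 fell in that comparison. VARS, the valyl-tRNA synthetase that binds the eEF1B complex, rose by 0.37 ± 0.06 with DamV133A and by 0.38 ± 0.06 with DamV133A-LMNB1 (edgeR adjusted p = 0.0023 and 0.0033), the second lost without untreated library 2. TUFM, the mitochondrial counterpart of eEF1A, fell by 0.37 ± 0.08 with DamV133A (edgeR adjusted p = 0.0092), a call lost without any 1 of the 4 libraries compared. Over all fits without 1 library, the list gave 1 to 6 higher and 0 to 4 lower with DamV133A and 0 to 9 higher with DamV133A-LMNB1, the last being 9 without its library 1 and 6 without library 2.

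Among 26 genes of mTORC1 signalling and of LARP1 and other proteins that bind TOP mRNAs, calls went both ways: 6 higher and 4 lower with DamV133A, 3 and 3 with m6A-Tracer, and 5 and 5 with DamV133A-LMNB1, with list medians of 0.01, 0.01 and -0.01. The shares of all genes called higher and lower were 14% and 14%, 8.44% and 5.35%, and 12.1% and 8.54%. DDIT4, an inhibitor of mTORC1, had a mean of 569 CPM in untreated cells, 401 with DamV133A-LMNB1, 308 with m6A-Tracer and 277 with DamV133A. It fell by 1.04 ± 0.06 with DamV133A, by 0.89 ± 0.06 with m6A-Tracer and by 0.51 ± 0.06 with DamV133A-LMNB1 (edgeR adjusted p = 4.2e-05, 0.00016 and 0.0015). DEPTOR, another inhibitor of mTOR, at a mean of 7.40 CPM in untreated cells, fell by 0.69 ± 0.13 with DamV133A (edgeR adjusted p = 0.0058), and EIF4EBP1, a repressor of cap-dependent initiation, by 0.62 ± 0.10 (edgeR adjusted p = 0.0034). EIF4EBP1 averaged 208 CPM with DamV133A-LMNB1 and 203 in untreated cells. Among the genes called higher, RPS6KB2 rose by 0.57 ± 0.08 with DamV133A-LMNB1 and SESN1 by 0.28 ± 0.07 with m6A-Tracer (edgeR adjusted p = 0.0035 and 0.035). The SESN1 call was lost without any 1 of the untreated, m6A-Tracer or DamV133A libraries. The counts moved with single libraries, from 1 to 12 higher and 2 to 11 lower with DamV133A, and with DamV133A-LMNB1 to 10 higher and 12 lower without its library 1 and 8 and 6 without library 2, while the DDIT4 and EIF4EBP1 calls named here were kept in all 8 fits without 1 library, and the DEPTOR call in 6. LARP1 itself, singled out after its values were seen, stood at -0.07 with DamV133A, -0.09 with m6A-Tracer and -0.34 with DamV133A-LMNB1, and was not called (edgeR adjusted p = 0.66, 0.62 and 0.052). With DamV133A-LMNB1 against DamV133A, 4 of the 26 were higher and 5 lower (median -0.02), while 13.9% and 9.11% of all genes were. Whether the levels of the 26 genes play a part in those of the TOP mRNAs was not tested.

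**Figure D3:**
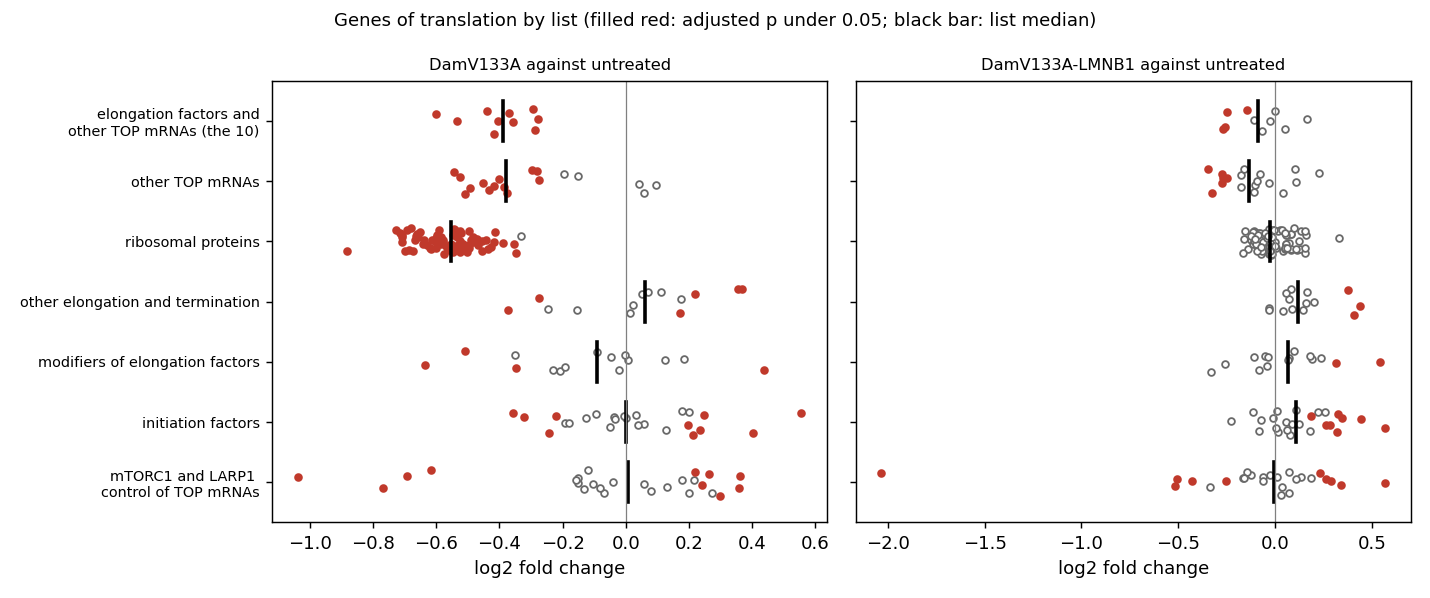
Log2 fold change of each gene in 7 lists of the translation machinery, with DamV133A (left) and DamV133A-LMNB1 (right) against untreated cells; filled red points passed an adjusted p of 0.05 in edgeR and black bars are list medians. The 10 mRNAs have a median of -0.39 on the left and -0.09 on the right, and the ribosomal proteins -0.55 and -0.02.

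Members varied together to different degrees. Across the 8 libraries, log2 CPM of each member had a Pearson r with the mean of the other 9 of 0.668 for PABPC1, 0.871 for EEF1B2 and 0.911 to 0.997 for the others, the highest being EEF1G. These values describe 8 libraries in 4 groups that share their depth and scaling. Outside the members, the genes with the highest r to their mean profile were ENO1, a glycolytic enzyme, ACTG1, a cytoplasmic actin, RACK1, a protein of the small ribosomal subunit, and the ribosomal protein genes RPL7A and RPL10, at 0.998 to 0.999. ENO1 stood at 3439 and 3382 CPM in untreated cells and at 2498 and 2468 with DamV133A. The lowest r, of -0.993 to -0.995, were those of BRAF, BCLAF1, UPF2, CCP110 and C2CD3. BRAF stood at 39.3 and 39.9 CPM in untreated cells and at 61.7 and 62.9 with DamV133A.

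The same genes were then located in the maps of lamina contact. In DamID, Dam fused to lamin B1 methylates DNA near the nuclear lamina, and DamV133A alone reports accessible DNA, so a bin lower with the fusion than with DamV133A has less methylation from the lamina than its accessibility alone would give. Each gene was placed by the midpoint of its span in a 100 kb bin. The bins of EEF1A1, TPT1 and PABPC1 held no other protein-coding gene, and the others held 1 to 3. They also held 190 (EEF1D) to 381 (EEF2) DpnI fragments against a median of 243 over all bins.

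In the bulk map, with 2 libraries for each construct, 8 of the 10 bins were called lower with DamV133A-LMNB1 and none higher, while 36.2% of all bins were lower and 35.2% higher. The bin of EEF1D (chr8:143500001-143600000) stood at 6.46 and 6.62 CPM with the fusion and 15.6 and 15.0 with DamV133A. Its difference, -1.23 ± 0.31, was the largest of the 10 (edgeR adjusted p = 0.0013). The bin of NACA (chr12:56700001-56800000) stood at 24.1 and 26.5 against 43.5 and 55.2, a difference of -0.96 ± 0.21 (edgeR adjusted p = 0.00038). The bin of EEF1A1 (chr6:73500001-73600000) stood at 34.4 and 40.5 against 54.5 and 56.4, a difference of -0.57 ± 0.19 (edgeR adjusted p = 0.0094). The constructs did not overlap in these 3 bins, nor in any other bin of the group except that of NAP1L1. How often this held over all bins was not counted.

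The bins of EEF2 (chr19:3900001-4000000), at -0.35 ± 0.18, and NAP1L1 (chr12:76000001-76100000), at -0.29 ± 0.22, were not called (edgeR adjusted p = 0.084 and 0.25). For NAP1L1 the constructs overlapped, with 31.0 and 55.7 against 58.8 and 46.8 CPM. The others were PABPC1 (chr8:100700001-100800000) at -0.93, EEF1G (chr11:62500001-62600000) at -0.95, TPT1 (chr13:45300001-45400000) at -0.77, NPM1 (chr5:171300001-171400000) at -0.75 and EEF1B2 (chr2:206100001-206200000) at -0.45, all called. Without DamV133A library 2 the count fell from 8 to 5, with EEF1A1, EEF1B2 and TPT1 lost; without DamV133A-LMNB1 library 1 EEF1B2 and TPT1 were lost, and without its library 2 all 10 were called.

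A separate set of bulk libraries compared wild-type Dam with the V133A variant, 2 libraries for each of 4 constructs. With V133A, 6 of the 10 bins were called lower in the fusion (EEF1A1, EEF1G, NAP1L1, PABPC1, NPM1 and NACA) and none higher, against 23.7% and 27% of all bins. The bin of EEF1G had 1.39 and 2.42 CPM in the fusion and 23.0 and 21.7 with DamV133A, a difference of -3.54 ± 0.79 (edgeR adjusted p = 0.0025). The count was 3 without DamV133A library 1 (EEF1G, NPM1 and NACA) and 4 without DamV133A library 2 or DamV133A-LMNB1 library 2. With wild-type Dam no bin of the 10 was called by edgeR, 1 had an unadjusted p under 0.05, and 2.63% of all bins were called; the values ran from -1.83 (EEF1G) to -0.04 (EEF1A1). DESeq2 called 1, EEF1G, at -1.86. The difference between the contrasts of the variants was itself tested and passed in none of the 10 (lowest edgeR adjusted p = 0.11, NACA, at -2.47 ± 0.79), and in 142 of 28733 bins overall.

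**Figure D4:**
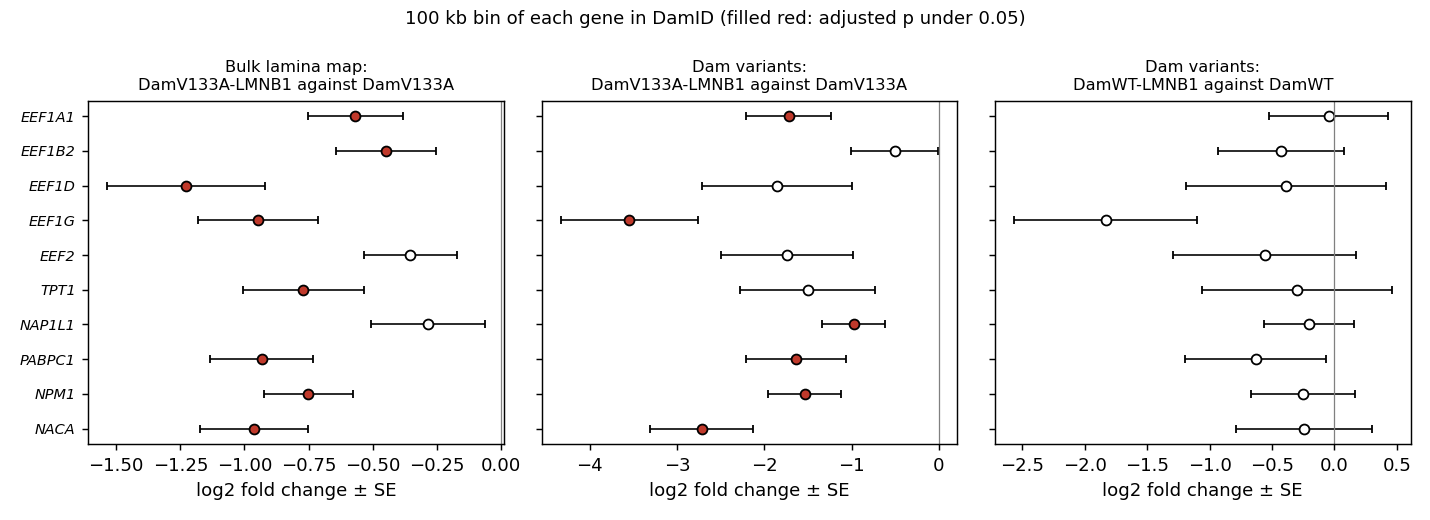
Log2 fold change with its standard error of the 100 kb bin of each gene in the fusion over Dam alone, in the bulk map (left) and in the comparison of Dam variants with V133A (middle) and wild-type Dam (right); filled red points passed an adjusted p of 0.05 in edgeR. All 30 points lie below 0, with 8 red on the left, 6 in the middle and none on the right.

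Single cells transfected with the fusion were scored bin by bin, counting a bin as contacted when its fragments reached the number expected from the bulk DamV133A libraries. The bins of the 10 genes were contacted in a median of 13.3% of 15 cells in batch 1, from 6.67% to 20% over the genes, and in a median of 12.5% of 36 cells in batch 2, from 2.78% for NPM1 to 22.2% for EEF1B2. The median over all bins was 26.7% and 38.9%. For bins called higher in the bulk map the medians were 60% and 63.9%, and for bins called lower 13.3% and 13.9%. The means were 11.3% and 12.8% for the group, 59.8% and 62.3% for bins called higher, and 14.3% and 17.2% for bins called lower. A bin of the group was expected to hold a median of 5.10 and 5.83 fragments per cell in the 2 batches, so a share rests on few fragments. That median was 3.24 and 3.82 over all bins and 3.88 and 4.52 over bins called lower. The shares were thus scored at unlike expected counts, a difference between bins that thinning the cells does not remove. With every cell thinned to 10000 fragments, which left 14 and 36 cells, the medians were 14.3% and 18.1%, against 21.4% and 25% over all bins and 14.3% and 16.7% over bins called lower. In the 3 cells with Dam alone the median was 50%, against 33.3% over all bins, and the means were 53.3% for the group, 37.1% for all bins and 48.5% for bins called lower. The cells are not replicates of a condition, and no test was made.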

How the data were processed

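The RNA table holds estimated counts per gene deposited by the authors (8 libraries, 39037 Ensembl rows with symbols, per the file headers); rows that share a symbol were summed and values rounded to whole numbers. For DamID, the authors deposited whole-number counts per 100 kb bin (4 bulk libraries, 54 single cells) and per DpnI fragment (8 libraries comparing Dam variants, summed here to 100 kb bins). The authors' deposited log2 fold change per bin was not used in the results. Per the submitters' processing notes, the build was hg38 and the tools included BWA 0.7.15-r1140, Salmon, limma, Trimmomatic 0.39, bedtools 2.28, SAMtools 1.9 and DESeq2; no role is given for any of them.

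All tests used edgeR 4.0.16 under R 4.3.3 (filterByExpr, TMM, glmQLFit, glmQLFTest; Benjamini-Hochberg over all genes or bins; adjusted p under 0.05), with 1 fit over the 4 RNA groups, 1 over the 4 bulk libraries and 1 over the 8 variant libraries; DESeq2 1.42.0 was an alternative. Python 3.11.15 with pandas 2.3.3 and NumPy 2.4.6 did the rest. CPM levels of different genes are not compared, since transcript lengths were not used.

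Members, lists and tests were chosen with earlier results of these data known. All members, LMNB1, the 5 genes most and least like the members' mean profile, pseudogenes reaching 1 CPM and up to 4 called genes per list and comparison, by absolute log2 fold change, could be named. A list of 8 small nucleolar RNA host genes was not analysed here. Replicate numbers did not pair the RNA libraries: deviations of same-numbered libraries correlated at -0.02 to 0.00.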

Additional observations from a re-analysis of the deposited data

How the results depend on the processing

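Counts of called members moved by more than 1.5 times, or to or from 0, in 18 fits that left out 1 library, at least 1 in each of the 9 comparisons, and in 6 fits with another setting. Fitting only the 2 groups compared gave 0 for DamV133A-LMNB1 against untreated and against DamV133A, and 8 for DamV133A against m6A-Tracer. For DamV133A-LMNB1 against m6A-Tracer, dropping the filter gave 7 and DESeq2 7; for wild-type Dam, DESeq2 gave 1. Leaving out 1 library gave 0 to 9 (DamV133A-LMNB1 against untreated), 6 to 10 (DamV133A), 1 to 10 (m6A-Tracer), 0 to 9 (DamV133A-LMNB1 against DamV133A, and against m6A-Tracer), 0 to 9 (DamV133A against m6A-Tracer), 5 to 10 (bulk bins), 3 to 6 (V133A bins) and 0 to 1 (wild-type bins); the cause was not tested.

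Signs turned, none past the threshold before, as follows. For DamV133A-LMNB1 against untreated, leaving out 1 library gave -0.13 to 0.23 in EEF1D, -0.24 to 0.021 in EEF1G, -0.13 to 0.090 in TPT1, -0.11 to 0.11 in NPM1 and -0.15 to 0.026 in NACA, and NPM1 was 0.0024 with DESeq2 size factors, 0.0057 with library totals and 0.0038 with DESeq2. PABPC1 was -0.075 against DamV133A and -0.023 against m6A-Tracer with library totals, and -0.0052 to 0.026 against DamV133A without 1 library. The bulk bin of NAP1L1 was -0.79 to 0.071. With wild-type Dam the ranges were -0.40 to 0.24 (EEF1A1), -1.15 to 0.042 (EEF1B2), -0.82 to 0.088 (TPT1), -0.49 to 0.040 (NAP1L1), -1.90 to 0.059 (PABPC1) and -0.57 to 0.15 (NPM1), and covered fragments gave 0.17 for NAP1L1 and 0.065 for PABPC1.

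Over all genes, fitting only the 2 groups moved the number called from 3480 to 409 (DamV133A-LMNB1 against untreated), 4712 to 8783 (DamV133A), 2322 to 7163 (m6A-Tracer), 3883 to 1 (DamV133A-LMNB1 against DamV133A), 121 to 1 (against m6A-Tracer) and 21 to 2532 (DamV133A against m6A-Tracer); DESeq2 called 2482 and edgeR without the filter 4047 for the fifth. With the replicate number as a block, the 6 RNA comparisons gave 4, 10, 8, 8, 0 and 0 called members, and NAP1L1 was lost against DamV133A. With contact set at 2 times the expected fragments, the median share of cells was 0 in both batches, against 13.3% and 13.9% over all bins and 0 and 2.78% over bins called lower. With 2 libraries a group, differences near the standard errors given were not detectable.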

Other observations

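Of 15 tested enzymes that modify elongation factors, 2 (DPH1 and DHPS) were called higher and none lower with DamV133A-LMNB1 than with DamV133A. Of all genes, 13.9% and 9.11% were. Both calls were lost without either DamV133A library. Against untreated cells, 1 was called higher and 3 lower with DamV133A, where 14% of all genes were called in each direction. With m6A-Tracer 1, DHPS, was called lower (5.35% of all genes were), a call kept in 2 of the 8 fits without 1 library. With DamV133A-LMNB1, DOHH and DPH2 were called higher (12.1% of all genes were), and neither call was made without either untreated library; 5 were higher and 1 lower without DamV133A-LMNB1 library 1, and 3 and 3 without library 2. DPH1, which starts the synthesis of diphthamide on eEF2, had a mean of 88.8 CPM in untreated cells, 85.7 with DamV133A-LMNB1, 85.7 with m6A-Tracer and 57.1 with DamV133A. It fell by 0.64 ± 0.06 with DamV133A against untreated (edgeR adjusted p = 0.00029) and stood at -0.59 ± 0.06 against m6A-Tracer (edgeR adjusted p = 0.017), where 21 genes of the table were called; the second call was kept in 2 of 8 fits without 1 library and the first in all 8. DHPS and DOHH make hypusine on eIF5A in successive steps; with DamV133A, DHPS fell by 0.51 ± 0.08 and DOHH rose by 0.44 ± 0.12 (edgeR adjusted p = 0.0022 and 0.031), calls kept in 8 and 2 of the 8 fits without 1 library.

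Of the 25 initiation factors outside the TOP lists, 8 were called higher and 2 lower with DamV133A-LMNB1 than with DamV133A. Of all genes, 13.9% and 9.11% were. The largest difference, EIF3K at 0.48, was a call lost without either DamV133A library. The same 25 were set against untreated cells, with the shares of all genes in brackets. Of the 25, 6 were higher and 4 lower with DamV133A (14% each), and 2 and 2 with m6A-Tracer (8.44% and 5.35%). With DamV133A-LMNB1, 8 were higher and none lower (12.1% and 8.54%). The last count was 17 and 2 without DamV133A-LMNB1 library 1 and 10 and 4 without library 2. EIF5, which stimulates GTP hydrolysis by eIF2, rose in all 3 in that order, by 0.56 ± 0.05, 0.38 ± 0.05 and 0.44 ± 0.05 (edgeR adjusted p = 0.00015, 0.0017 and 0.00082), kept in all fits without 1 library. EIF2B2, a subunit of the exchange factor of eIF2, rose by 0.40 ± 0.06, 0.32 ± 0.06 and 0.57 ± 0.06 (edgeR adjusted p = 0.0022, 0.011 and 0.00090), the m6A-Tracer call being kept in 4 of the 8 such fits. EIF4A1, the initiation helicase, fell by 0.32 ± 0.06 with DamV133A and by 0.24 ± 0.06 with m6A-Tracer (edgeR adjusted p = 0.0056 and 0.035), calls kept in 6 and 2 of the 8 fits without 1 library.

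Of 10 tested relatives and partners of the members, 2 were called higher and 1 lower with DamV133A-LMNB1 than with DamV133A. Of all genes, 13.9% and 9.11% were. Against untreated cells, 2 were called lower with DamV133A and 1 with DamV133A-LMNB1, where 14% and 8.54% of all genes were called lower. The DamV133A-LMNB1 count against untreated cells moved with the library of that group left out. NPM3, a relative of NPM1, fell by 0.41 ± 0.10 with DamV133A (edgeR adjusted p = 0.016), and PAIP2B, a PABPC1 inhibitor, fell by 0.33 ± 0.07 with DamV133A-LMNB1 (edgeR adjusted p = 0.012), calls kept in 4 and 6 of the 8 fits.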
